A study of Mus musculus with 6 samples.

Results

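The voltage-gated potassium (Kv) channel genes were followed in bulk RNA-seq of the primary somatosensory (S1) cortex of mice with or without whisker stimulation (WS). They were chosen by symbol alone, as the genes of the Kcna, Kcnb, Kcnc, Kcnd, Kcnf, Kcng, Kcnh, Kcnq, Kcns and Kcnv subfamilies, and 37 of the 14824 genes in the deposited tables met this rule. GENCODE M21 holds 40 such genes. The other 3, Kcna7, Kcna10 and Kcnv2, were not analysed here.

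The non-stimulated group (NS) held 3 libraries, labelled NW control with treatment none, and the WS group held 3 libraries. Both were WT mice at postnatal day 21, of strain C57B6 as the labels spell it. In the methods, the whiskers of one side were brushed daily and the unstimulated side of the brain was the control, but which of the sequenced samples share an animal is not stated. RNA of WS cortex was taken 90 minutes after the last stimulation. The tissue held neurons, glia and vascular cells together, so a change in the number of cells of a type and a change in RNA per cell cannot be told apart. The replicates of a group were separate male mice by the description of the experiment, and p-values measure the spread between these libraries.

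A Kv channel opens when the membrane depolarizes and lets potassium leave the cell, which repolarizes the neuron and sets how soon it can fire again. Subunits of Kcna, Kcnb, Kcnc and Kcnd form channels within their own subfamily, and those of Kcnf, Kcng, Kcns and Kcnv are electrically silent, since they conduct only after joining Kcnb subunits. Kcnh genes encode the EAG, ERG and ELK channels, and Kcnq genes include those of the M-current, the slow brake on repeated firing.

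The coding sequence of the selectivity filter is shown because it is the stretch all of these channels have in common, and because its middle codon differs between Kcnh and the rest. The capitals mark the glycine, tyrosine or phenylalanine, and glycine codons of the filter. The windows are 21 bases of exonic coding sequence, 5′ to 3′ on the coding strand, from GENCODE M21 on GRCm38. They come from Kcna1 at chr6:126642222-126642242 (minus strand, exon 2), Kcnb2 at chr1:15710046-15710066 (plus, exon 2), Kcnc4 at chr3:107447793-107447813 (minus, exon 2), Kcng3 at chr17:83587908-83587928 (minus, exon 2), Kcnv1 at chr15:45109283-45109303 (minus, exon 3), Kcnh2 at chr5:24325549-24325569 (minus, exon 7) and Kcnh5 at chr12:75087460-75087480 (minus, exon 7).
Kcna1: actgtgGGATACGGTgacatg
Kcnb2: actgtgGGCTACGGTgacatt
Kcnc4: acgcttGGCTATGGGgacatg
Kcng3: acagttGGCTATGGAgatatg
Kcnv1: acagtaGGATATGGGgacatt
Kcnh2: agcgtgGGCTTTGGCaatgtc
Kcnh5: accataGGATTTGGAaacata

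Read in frame on the coding strand, GGNTACGGN or GGNTATGGN was found in all 29 Kv genes outside Kcnh, and GGNTTCGGN or GGNTTTGGN in all 8 Kcnh genes. Of 21472 mouse coding genes searched the same way, 6.12% held either tyrosine form and 8.52% either phenylalanine form. Kcnh4 and Kcnq3 each held 1 further match elsewhere in the coding sequence, of the tyrosine form in both, so that 30 Kv genes held a tyrosine form at some place. The silent Kcng3 and Kcnv1 held a tyrosine form, as did Kcnb2, and the window crossed an exon junction in 3 genes, Kcnd1, Kcnd2 and Kcnd3. The search was added after the expression results had been seen, and a match describes letters only.

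Several of the genes lie close together. Kcna5, Kcna1 and Kcna6 follow each other on the minus strand of chromosome 6, at 126532551 to 126535412, 126640397 to 126646384 and 126708329 to 126740674, and Kcna3 and Kcna2 on the plus strand of chromosome 3, at 107036169 to 107038070 and 107101146 to 107115005. Neighbours were not at like levels. Kcna1 averaged 45.3 in CPM per kilobase of exon (CPM, the count scaled to library size by TMM) and Kcna5 0.776.

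Depth was 15660395 to 17276168 counts per library, and Kv genes took 0.335% to 0.359% of them. Counts were computed back from deposited means, SDs and z-scores. All 8 excitatory markers and all 8 interneuron markers on the lists used were present, as the tissue label says. Summed CPM of the interneuron markers was 1096 to 1142 in NS and 1179 to 1252 in WS. The groups did not overlap either in the sum for endothelial cells (226 to 252 in NS, 253 to 290 in WS). The microglial sum was 404 to 423 in NS and 424 to 438 in WS. The pericyte sum was 244 to 245 in NS and 248 to 291 in WS. All 4 sums were thus higher in WS, for microglia by a narrow gap (422.7 against 423.7). Single markers did not all follow their sum. Lower in WS were 2 of 8 interneuron, 1 of 7 microglial, 1 of 6 pericyte and 0 of 10 endothelial markers. None of these markers passed the adjusted p threshold in edgeR. No test was made of the sums. The sum of oligodendrocyte markers was 8572 to 12250 in NS and 10140 to 13570 in WS. Striatal markers were highest in WS replicate 2, at 741 CPM against 348 to 494 in the others, and choroid plexus markers ranged from 302 to 984. Their part in the results on Kv genes was not tested.

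Levels between genes were compared as CPM per kb over all 6 libraries. Kcna1, an axonal low-threshold channel, stood first at 45.3 ± 4.22 (SD, n = 6), followed by Kcnh3, an ELK channel, at 40.9 ± 3.64 and the silent Kcnf1 at 34.2 ± 3.26. The silent Kcnv1, at 32.3 ± 3.38, was close to Kcnc4, a fast A-type channel, at 32.3 ± 2.10. Only 6 of the 36 neighbouring pairs in this order had library ranges that did not overlap.

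**Figure D1:**
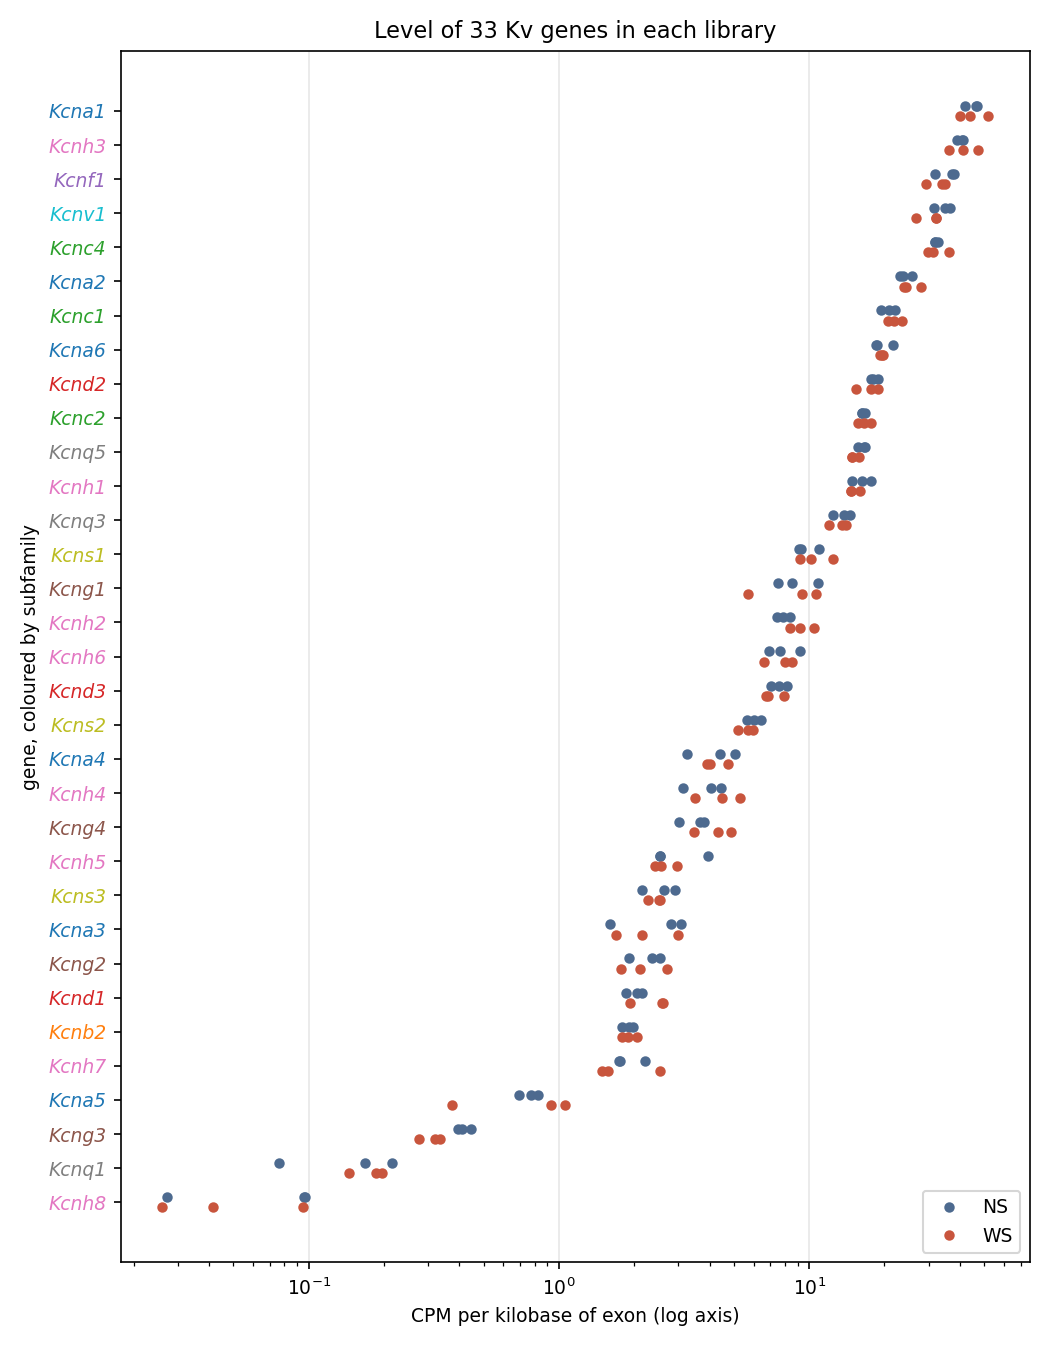
CPM per kilobase of exon (log axis) of 33 Kv genes in each library, with NS in blue, WS in red and gene names coloured by subfamily. Kcna1 is highest at a mean of 45.3 and Kcnh8 lowest at 0.0638, and within most genes the points of both groups lie among each other.

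In the lower part of the order stood Kcnq1, the heart and epithelial member of its family, at 0.164 ± 0.0496 CPM per kb (n = 6) and Kcnh8 at 0.0638 ± 0.0356. Kcnh8 had 7, 7 and 2 counts in NS and 2, 7 and 3 in WS and fell below the filter on low counts, so 36 of the 37 genes were tested. Lengths bear on this order. With the length of the transcript that has the longest coding sequence in place of all exons, Kcnc1 moved from rank 10 to 1 and Kcnd3 from 21 to 10, 9 of the 36 neighbouring pairs turned, and the rank correlation of both orders across genes was 0.965. This second length was added after the first order had been seen.

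As shares of the summed CPM per kb of all Kv genes, Kcnc held 20.7% (20.04% to 22.3% over the 6 libraries), Kcna 19.6% (18.2% to 21.7%) and Kcnh 16.6% (15.6% to 17.5%). The silent Kcnf, Kcng, Kcns and Kcnv, a grouping added later, together held 20.3%. The A-type Kcnd genes held 5.53% and Kcnq 10.9%. These shares depend on the exon lengths used.

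Whether whisker stimulation changed these genes was asked with edgeR's quasi-likelihood test over all 13747 genes that passed the filter. No Kv gene passed an adjusted p of 0.05 (0 of 36, Benjamini-Hochberg, lowest adjusted p = 0.9998). The test called 5 genes of any kind at that threshold, 0.0364% of those tested. With the additional condition of a log2 fold change above 1, WS had 4 genes called higher (0.0291%) and 0 called lower (0.0%). When replicate number entered the fit as a block, 11 genes passed (0.08%), of which 6 were higher by the stricter rule (0.0436%), and 0 of them were Kv genes. DESeq2 called 0 Kv genes too.

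At an unadjusted p under 0.05, 1 Kv gene was higher in WS, Kcnh2, and 0 were lower, in edgeR with and without the block and in DESeq2. The background was 0.866% of all tested genes higher and 0.327% lower (1.38% and 0.386% with the block). For a family of 36 genes, 1 such gene is not a result about the family.

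The sizes of change in Kv genes were small. The median log2 fold change was -0.02 over the 36 Kv genes and 0.01 over all tested genes, the median absolute change was 0.07 in both, and 88.9% of Kv genes and 88.4% of all genes changed by under 0.2. When genes averaging under 100 counts were left out, the median absolute change was 0.0699 in 32 Kv genes and 0.0584 in all 10876, and 90.6% and 95.8% changed by under 0.2. No test was made of these differences. Above 0 lay 16 Kv genes (44.4%, against 53.0% of all genes) and below 0 lay 20. The 95% interval lay within 0.25 of 0 on the log2 scale for 9 Kv genes, within 0.5 for 28 and within 1 for 34. With the replicate block the same counts were 9, 30 and 34. The matching shares over all tested genes are not given here, so the counts show nothing particular to Kv genes. These bounds were set after the fits had been seen. The 2 genes outside the last bound were the low Kcng3 and Kcnq1, whose intervals ran from -1.002 to 0.17 and from -0.71 to 1.10.

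**Figure D2:**
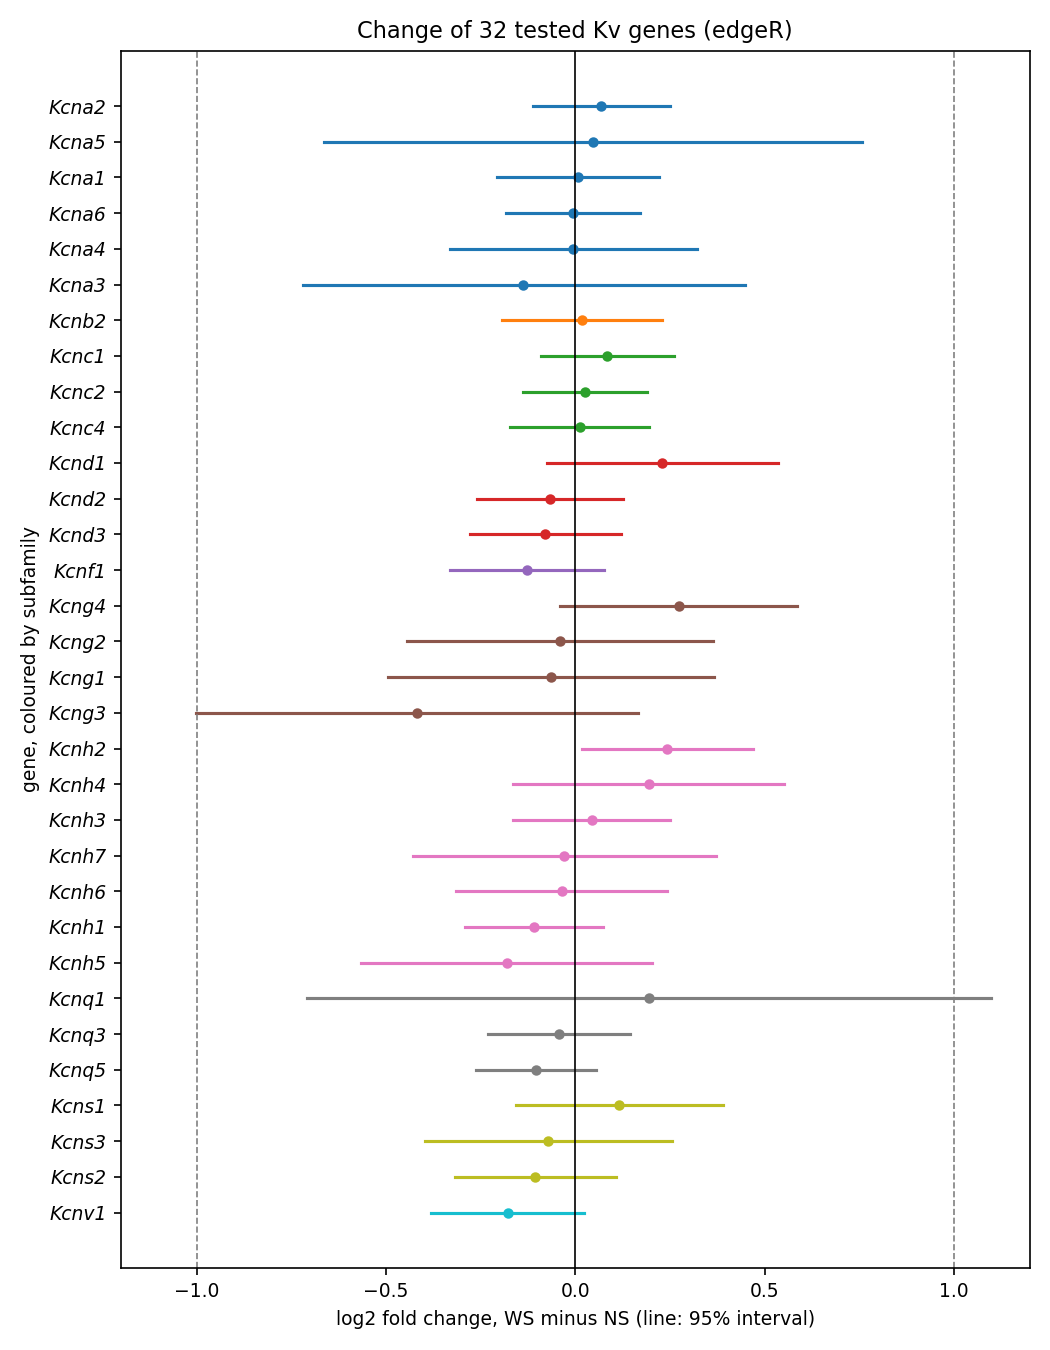
Log2 fold change (WS minus NS, horizontal axis) of 32 tested Kv genes with the 95% interval of the edgeR fit, coloured by subfamily. Points run from -0.42 (Kcng3) to 0.27 (Kcng4), dashed lines mark 1 and -1, and only the interval of Kcnh2 lies wholly to one side of 0, at 0.02 to 0.47.

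Kcnh2 encodes an ERG channel, known for repolarizing heart muscle and also present in brain neurons. It is at chromosome 5, 24319589 to 24351604, on the minus strand. Its CPM was 38.3, 40.7 and 36.03 in NS and 44.7, 50.7 and 40.7 in WS. Each WS library was above the NS library of the same number, but the lowest WS value lay just under the highest NS value, so the groups overlapped. The log2 fold change was 0.24 ± 0.10 (SE, n = 3 per group), with an adjusted p of 0.9998 in edgeR's quasi-likelihood test, so the difference did not hold up against the number of genes tested. Its unadjusted p in edgeR, 0.0374, passed 0.05 in neither the fit without NS replicate 1, nor those without NS replicate 3 or WS replicate 2. The other ERG genes did not share this value. Kcnh6 was at -0.04 ± 0.13 and Kcnh7 at -0.03 ± 0.18.

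**Figure D3:**
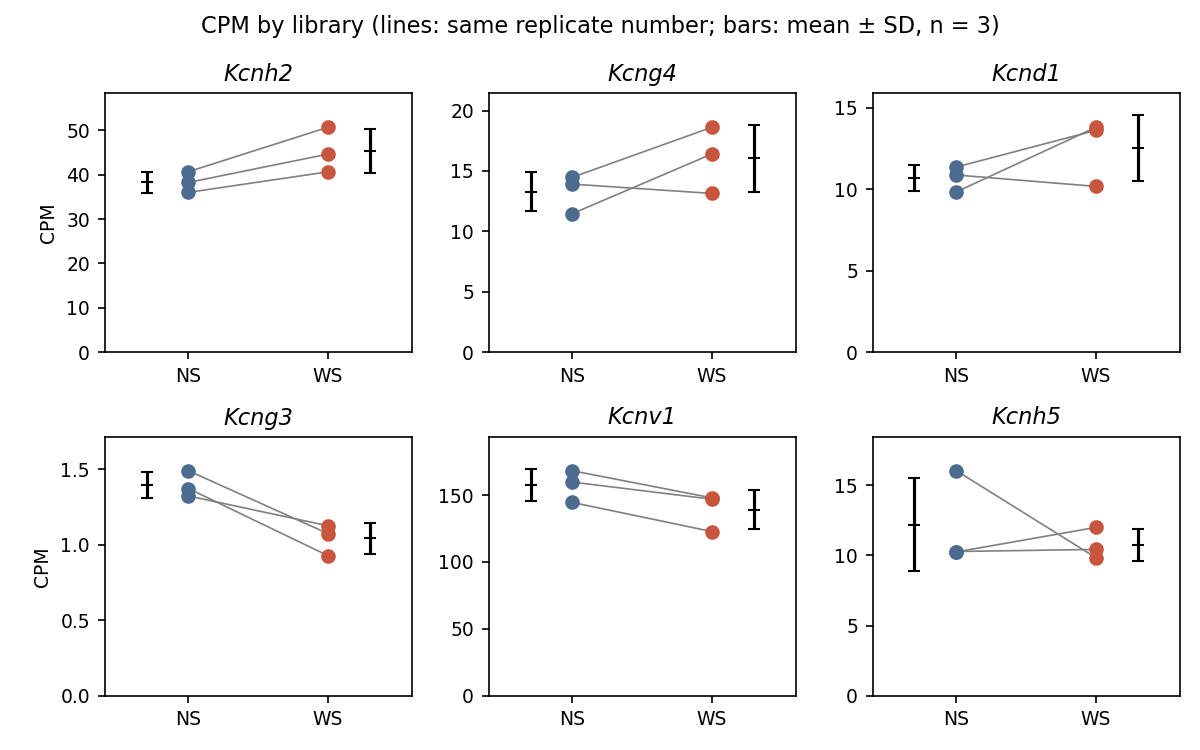
CPM by library of the 3 Kv genes with the largest and the 3 with the smallest log2 fold change, with NS in blue and WS in red, grey lines joining libraries of the same replicate number, and black bars for the mean ± SD (n = 3). Kcnh2 rises along all 3 lines and Kcng3 and Kcnv1 fall along all 3, while only Kcng3, at 1.32 to 1.49 CPM in NS and 0.928 to 1.13 in WS, shows no overlap.

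Among the silent subunits, Kcng3 (chromosome 17, 83585957 to 83631895, minus strand) was the 1 Kv gene whose groups did not overlap. Of all tested genes 3.16% were lower and 3.11% higher in this way, against 1 and 0 of 36 Kv genes. It had 21, 22 and 24 counts in NS and 19, 15 and 17 in WS, or 1.32, 1.37 and 1.49 CPM against 1.13, 0.928 and 1.07. The difference of a few counts gave a log2 fold change of -0.42 ± 0.27 (SE, n = 3 per group). A two-sided exact permutation test over the libraries, without pairing, gave p = 0.1, the smallest that 3 libraries against 3 can give. That value follows from the groups not overlapping and adds nothing to it.

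Kcnv1, which slows and reduces the current of Kcnb channels, had 144.5, 159.7 and 168.2 CPM in NS and 122.7, 146.9 and 147.9 in WS. WS replicates 2 and 3 lay above NS replicate 1, so the groups overlapped. The log2 fold change was -0.18 ± 0.09 (95% interval -0.38 to 0.02, adjusted p = 0.9998 in edgeR). Kcng4 ran the other way, at 11.5, 14.5 and 13.9 CPM in NS and 16.4, 18.6 and 13.1 in WS, with a log2 fold change of 0.27 ± 0.14 and WS replicate 3 within the NS range. Kcnf1 had 178.2, 182.2 and 153.0 CPM in NS and 167.1, 162.3 and 140.5 in WS (-0.13 ± 0.09). Kcng2 (-0.04 ± 0.18), Kcns2 (-0.11 ± 0.10) and Kcns3 (-0.07 ± 0.15) lay closer to 0.

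Kcng1 spread most between libraries among the 32 Kv genes with at least 100 counts on average, with 48.7, 38.6 and 33.9 CPM in NS and 47.9, 42.1 and 25.8 in WS. The libraries numbered 1 were highest and those numbered 3 lowest in both groups, and the log2 fold change was -0.06 ± 0.20. Kcns1, the most abundant Kcns gene per kb, had 24.7, 25.1 and 29.6 CPM in NS and 33.6, 27.6 and 24.8 in WS (0.12 ± 0.13).

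Summed over Kcnf, Kcng, Kcns and Kcnv, the 9 silent genes had 457.9, 468.0 and 450.4 CPM in NS and 435.9, 441.8 and 399.7 in WS, a log2 ratio of -0.11, and the libraries of the groups did not overlap. This sum was chosen after the values of single genes had been seen. It was the only one of 12 sums, counting the 10 subfamilies and all Kv genes, to do so. Without Kcnv1 the ranges overlapped, with 282.2 as the lowest NS value and 313.2 as the highest WS value. No test was made of the sum, and 2 of its 9 genes had log2 fold changes above 0. None of 6 ratios of levels per kb separated the groups.

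**Figure D4:**
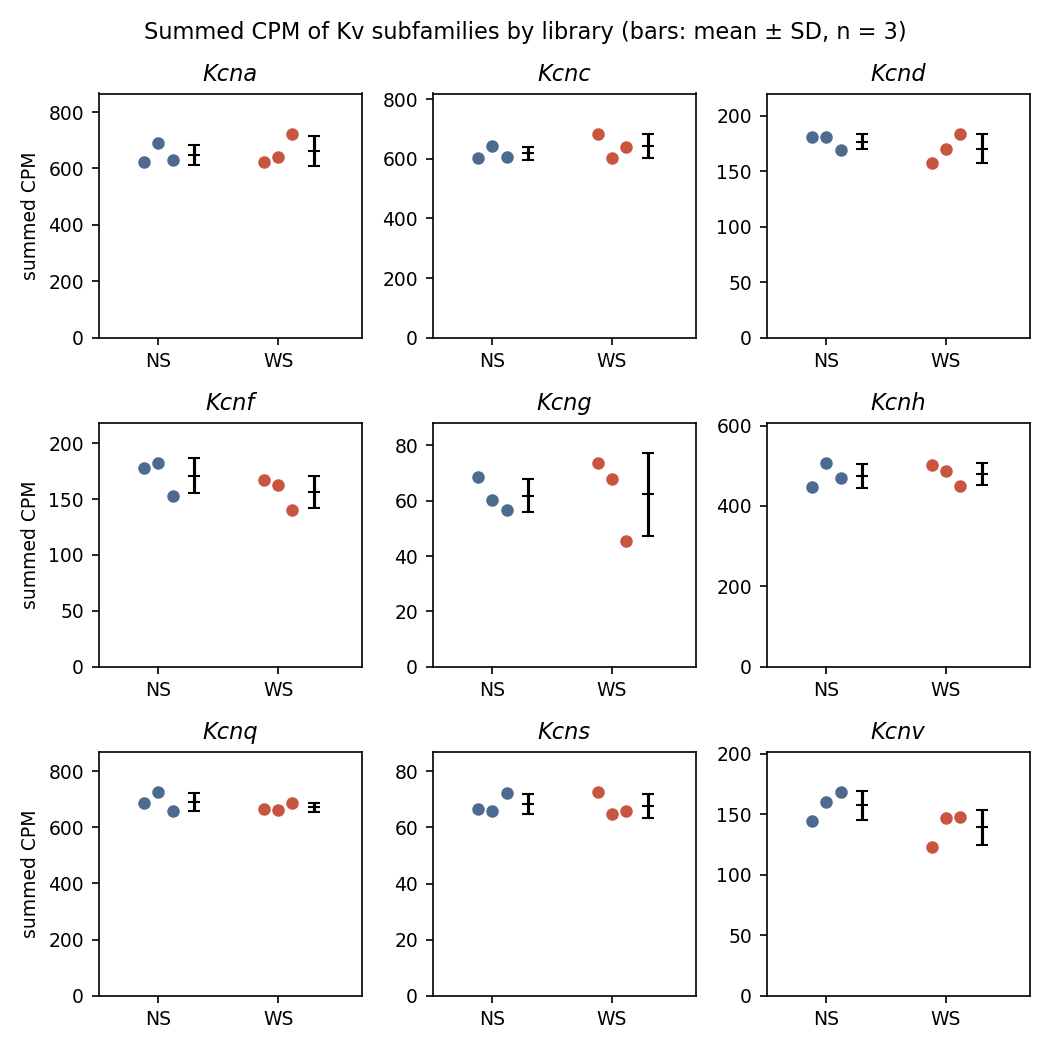
Summed CPM of 9 Kv subfamilies in the 3 NS (blue) and 3 WS (red) libraries, from 0, with the mean ± SD (n = 3) beside them. In each of the 9 panels the ranges of both groups overlap.

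None of the 10 subfamilies separated NS from WS in summed CPM. The log2 ratio was -0.18 for Kcnv and -0.13 for Kcnf, each of them a single gene, and lay between -0.05 for Kcnd and 0.06 for Kcnc in the others. The order of the subfamilies rested on single libraries. Without NS replicate 3 Kcnf was at -0.2026 and Kcnv at -0.1282, and without WS replicate 1 Kcnf was at -0.1772, Kcng at -0.1278 and Kcnv at -0.0952. The sum of all Kv genes was 3433 ± 140 (SD, n = 3) among NS libraries and 3411 ± 56.8 among WS libraries, a log2 ratio of -0.01.

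In Kcnc, the channels that let interneurons fire fast, log2 fold changes ran from 0.01 to 0.08 and none passed the test. Kcnc1 was at 0.08 ± 0.08 and Kcnc2 at 0.03 ± 0.07. Kcnc4 had 116.6, 120.6 and 117.1 CPM in NS and 132.5, 110.0 and 114.4 in WS, so WS held both the highest and the lowest values. The sum over the 4 genes was 618 ± 22.3 CPM in NS and 642 ± 39.5 in WS. The sum of the interneuron markers was higher in every WS library, as given above, and their part in the Kcnc values was not tested. Exons of several Kv genes share bases with a gene on the other strand, namely 2355 bases in Kcna6, 696 in Kcnh7, 272 in Kcng2, 237 in Kcnq5, 165 in Kcnd3, 121 in Kcnq1 and 1 in Kcnh3, and whether counting used strand is not given in the sources used here.

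In Kcna, Kcna1 had 201.4, 221.9 and 224.1 CPM in NS and 191.5, 210.1 and 248.9 in WS, a log2 fold change of 0.01 ± 0.10. WS held both the lowest and the highest value. Kcna2, its usual partner in axons, was at 0.07 ± 0.08, Kcna6 at -0.01 ± 0.08 and the A-type Kcna4 at -0.00 ± 0.15. Kcna3 (-0.14 ± 0.27) and Kcna5 (0.05 ± 0.32) had few counts and wide intervals. The ratio of Kcna1 to Kcna2 per kb was 1.87 ± 0.137 in NS and 1.78 ± 0.116 in WS (SD, n = 3).

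The delayed rectifier Kcnb2 had a log2 fold change of 0.02 ± 0.10, with a 95% interval from -0.19 to 0.23. Of the somatodendritic A-type genes, Kcnd2 had 92.9, 96.7 and 90.6 CPM in NS and 79.2, 90.9 and 97.4 in WS (-0.07 ± 0.09), and Kcnd3 was at -0.08 ± 0.09. Kcnd1 had 9.84, 11.4 and 10.9 CPM in NS and 13.8, 13.6 and 10.2 in WS. Its first 2 WS libraries lay above the NS range and the third within it, with a log2 fold change of 0.23 ± 0.14.

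Of the M-current genes, Kcnq3 had 202.9, 214.0 and 184.0 CPM in NS and 177.2, 205.9 and 199.6 in WS, and Kcnq5 had 120.5, 128.6 and 127.1 in NS and 121.3, 114.3 and 114.4 in WS. The groups overlapped in both genes, in Kcnq5 through WS replicate 1. The log2 fold changes were -0.04 ± 0.09 and -0.10 ± 0.07. The low Kcnq1 was at 0.19 ± 0.41.

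In Kcnh, Kcnh3 had 223.6, 237.2 and 234.3 CPM in NS and 271.4, 236.8 and 207.9 in WS (0.04 ± 0.09). Its WS libraries lay above, within and below the NS range. The sum of the excitatory markers was also highest in WS replicate 1 (3333 CPM) and lowest in WS replicate 3 (2621 CPM). The part of those cells in the Kcnh3 values was not tested. Kcnh5, an EAG channel, had 10.3, 16.04 and 10.2 CPM in NS and 10.4, 9.84 and 12 in WS, so that its log2 fold change of -0.18 ± 0.18 came with 1 high NS library, and without NS replicate 2 it was 0.07. The other EAG gene, Kcnh1, was at -0.11 ± 0.08, and the ELK gene Kcnh4 at 0.19 ± 0.16 (0.046 to 0.336 when 1 library was left out).

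**Figure D5:**
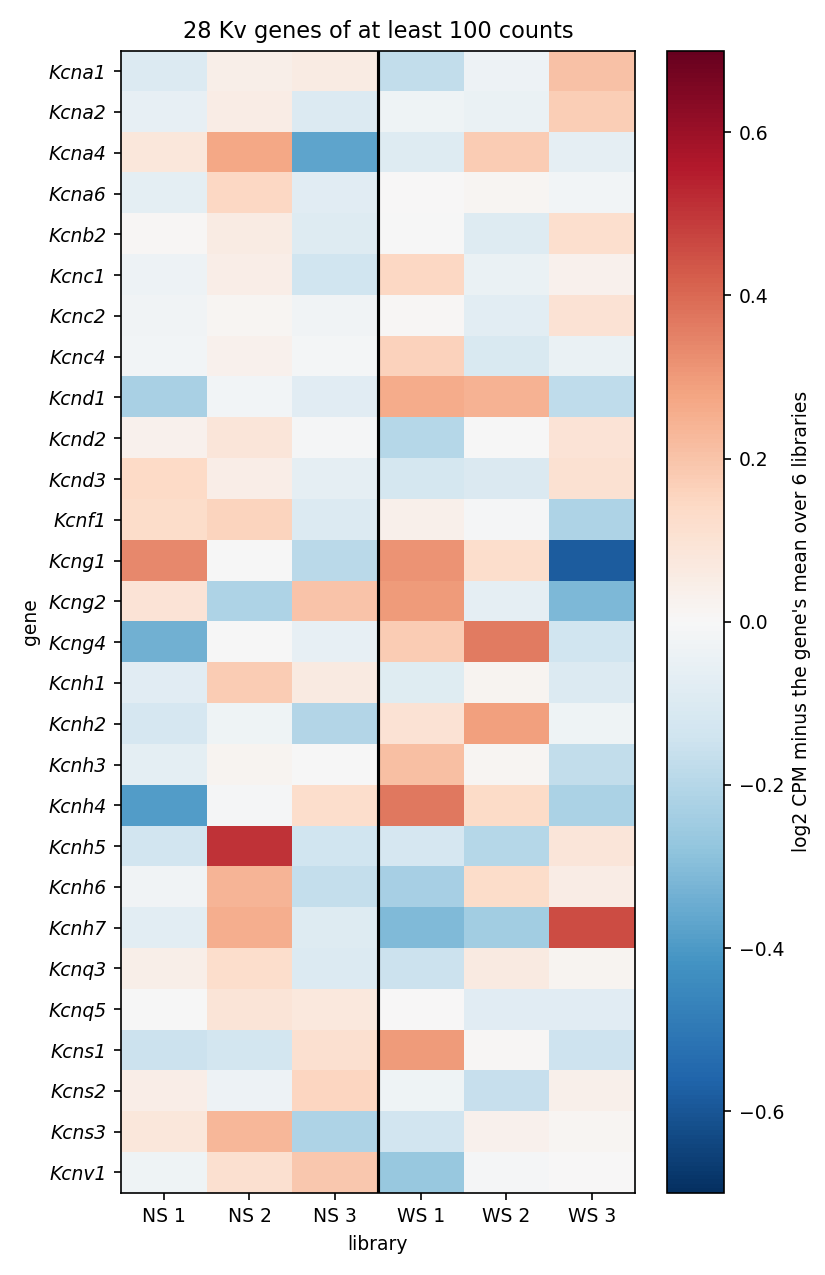
Log2 CPM of 28 Kv genes with at least 100 counts on average in each library, minus the mean of the gene over the 6 libraries (colour scale, red above and blue below). The black line parts NS from WS, and the most marked cells, such as Kcng1 at -0.58 in WS replicate 3 and Kcnh5 at 0.51 in NS replicate 2, belong to single libraries.

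Counted by pairs of the same replicate number, 2 of 36 Kv genes were higher in WS in all 3 pairs, Kcnh2 among them (against 9.82% of all tested genes), and Kcnf1, Kcng3, Kcnh1, Kcns2 and Kcnv1 were lower in all 3 (5 of 36, or 13.9%, against 8.57%). This count was added after the fits had been seen.

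Partners and other potassium channels gave a like picture. No gene passed an adjusted p of 0.05 in edgeR among 13 tested accessory subunits of Kv channels, 12 inward rectifiers, 10 two-pore channels, 10 calcium- and sodium-activated channels and 10 anchoring partners, and none had an unadjusted p under 0.05. Their median log2 fold changes were 0.03, 0.02, 0.06, 0.06 and 0.04. With the replicate block, 3 of them, 2 higher and 1 lower, had an unadjusted p under 0.05 in edgeR and an adjusted p of 0.9999, against 1.38% of all tested genes higher and 0.386% lower. They were Kcnj10, the astrocytic inward rectifier (log2 fold change 0.23), Kcnmb1, a subunit of calcium-activated channels with 9, 13 and 17 counts in NS and 18, 26 and 21 in WS (0.72), and the sodium-activated Kcnt2 (-0.22). All 10 astrocyte markers had a log2 fold change above 0 with a median of 0.13, and none passed an adjusted p of 0.05. Their part in the Kcnj10 value was not tested.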

How the data were processed

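S1 cortex of 3 NS and 3 WS samples was sequenced by DNBseq. In the methods, reads of rRNA or of low quality were discarded before alignment with HISAT2, and the submitters' processing notes name mm10. The counting tool and annotation are not given in the sources used here. Samples qualified at a RIN above 2 per the labels. The authors deposited for each gene an estimated count averaged over the 6 libraries and the SD. The authors also deposited a z score per library, made by centring each value on that mean and dividing it by the SD. The deposited columns of group means and comparisons (fold, p-value, −log10 p) were not used. The column for WS replicate 3 bears the name 3NWS and was read as such since the deposited WS mean includes it, within 0.00067.

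Counts were computed as mean plus z-score times SD and rounded, which departs from the design, written for counts or FPKM. In the 13418 genes with a rounding uncertainty under 0.1, 88.5% of values came back whole within it, against 4.45% by chance. Among Kv genes the largest uncertainty was 0.217 counts, and 34 of 37 were whole in all 6 libraries. No library pair was alike within sampling noise (lowest chi-square 4.29 per degree of freedom). Tests used edgeR 4.0.16 (R 4.3.3; TMM, filterByExpr, quasi-likelihood, Benjamini-Hochberg over 13747 genes), checked on simulated data, with DESeq2 1.42.0, other normalizations and filters, a replicate block and leaving out each library as alternatives. Python 3.11.15 and SciPy 1.17.1 were used. GENCODE M21 (GRCm38) gave exon lengths and sequences and matched 14788 of the listed genes.

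Some Kv genes are not reported by name here. Values per library are given for the highest gene per kb of each subfamily, genes with an unadjusted p under 0.05 or groups that do not overlap, and the 3 largest and 3 smallest log2 fold changes at 10 or more counts. The members and lists were chosen with earlier results of these data known. The silent-subunit sum, ratios, interval bounds, pair counts, second gene length and filter search were added after the fits had been seen.

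Whether replicate numbers pair the samples, which the labels and methods do not state, was checked by correlating deviations from group means. In log2 CPM of all tested genes same-numbered pairs gave 0.342, 0.228 and 0.124, all over the limit of 0.1. Each library correlated best with its own number, so by this measure the numbers were taken to pair the samples. This was first computed in the same run as the fits. The third value lies near the limit, and 2 of the measures added later did not meet it. In genes of at least 100 counts the values were 0.376, 0.346 and 0.0677, and 5 of the 6 libraries correlated best with their own number. In CPM scaled by gene the values were 0.0691, -0.026 and -0.0524, all under the limit, and 2 of the 6 libraries did so. The pairing thus depends on the measure used. Results are given without the block, as designed, and with it where counts of calls moved. Fold changes, SEs and intervals of single genes thus leave out the pairing, unless the block is named. For Kcnh2 the unadjusted p in edgeR was 0.0374 without the block and 0.0243 with it.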

Additional observations from a re-analysis of the deposited data

How the results depend on the processing

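No Kv gene was called under any alternative run, and the lowest adjusted p of a Kv gene in any of them was 0.884 (edgeR, without WS replicate 3). Across normalizations, filters, DESeq2 and the replicate block, the count of Kv genes with an unadjusted p under 0.05 stayed at 1 higher and 0 lower. When 1 library was left out, Kv genes higher ranged from 0 to 4 and lower from 0 to 2. Without WS replicate 3 there were 4 higher (Kcnd1 0.36, Kcng4 0.40, Kcnh2 0.32 and Kcnh4 0.34 on the log2 scale) and 2 lower (Kcnh7 -0.32 and Kcnv1 -0.22). Without NS replicate 1 there were 0 higher and 1 lower, and without NS replicate 3 or WS replicate 2 there were 0 higher. The shares of all tested genes that passed in these same fits are not given here. The counts of Kv genes in them are therefore not a result about the family. Over all genes the calls ranged from 0 to 6 higher, with 0 without NS replicate 2 or 3, and from 0 to 1 lower. The block raised the calls over all genes from 4 to 6 higher and from 5 to 11 at any fold change, and changed no call of a Kv gene. The count of Kv genes with groups apart was 1 higher under upper-quartile normalization, where Kcnh2 separated, and 0 lower at a mean count of at least 50, which removes Kcng3. The median log2 fold change of Kv genes ranged from -0.0508 to 0.0471, the latter without NS replicate 2. The cause was not tested for the calls lost or gained without a library.

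The sign held in every alternative for 12 of the 32 Kv genes compared one by one. Kcna4 turned to 0.0083 with the replicate block. Leaving out 1 library turned the sign in 20 genes, with log2 fold changes that ranged from -0.104 to 0.089 in Kcna1, -0.0046 to 0.113 in Kcna2, -0.378 to 0.043 in Kcna3, -0.164 to 0.14 in Kcna4, -0.224 to 0.376 in Kcna5, -0.044 to 0.071 in Kcna6, -0.039 to 0.057 in Kcnb2, -0.019 to 0.059 in Kcnc2, -0.073 to 0.057 in Kcnc4 and -0.136 to 0.012 in Kcnd2. The same ranges were -0.251 to 0.156 in Kcng1, -0.221 to 0.092 in Kcng2, -0.058 to 0.133 in Kcnh3, -0.292 to 0.067 in Kcnh5, -0.123 to 0.082 in Kcnh6, -0.316 to 0.11 in Kcnh7, -0.129 to 0.518 in Kcnq1, -0.102 to 0.018 in Kcnq3, -0.014 to 0.21 in Kcns1 and -0.186 to 0.033 in Kcns3. Among genes that kept their sign, the range was 0.033 to 0.129 in Kcnc1, 0.155 to 0.358 in Kcnd1, -0.156 to -0.028 in Kcnd3, -0.203 to -0.056 in Kcnf1, -0.477 to -0.349 in Kcng3, 0.146 to 0.397 in Kcng4, -0.172 to -0.046 in Kcnh1, 0.148 to 0.315 in Kcnh2, 0.046 to 0.336 in Kcnh4, -0.132 to -0.086 in Kcnq5, -0.15 to -0.057 in Kcns2 and -0.237 to -0.095 in Kcnv1. For summed subfamilies it was -0.0349 to 0.0776 in Kcna, 0.0097 to 0.0984 in Kcnc, -0.1083 to 0.0005 in Kcnd, -0.1278 to 0.1941 in Kcng, -0.0255 to 0.0637 in Kcnh, -0.0757 to -0.0061 in Kcnq and -0.0644 to 0.0316 in Kcns. The silent-subunit sum, added after the fits had been seen, ranged from -0.135 to -0.0641. Counting error limits Kcnh8, Kcnq1 and Kcng3 most.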
